A study of Rattus norvegicus with 6 samples.

Results

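The genes described here encode proteins of the mitochondrial ribosome. They were taken as the rows of the gene table whose symbol is Mrpl or Mrps followed by a digit, which gave 76 of 24005 gene symbols. Their RNA was measured in aortas taken from rats with chronic kidney disease. All rats had a subtotal nephrectomy (5/6 Nx) in 2 operations and ate a diet with 1.2% phosphorus, which speeds up calcification of the vessel wall. The exosome group (n = 3 libraries) was given 10 mg/kg of engineered exosomes, called ANCR/E7-EXO in the labels, by the tail vein at intervals of 5 days. The saline group (n = 3 libraries) was given an equal volume of saline for 13 weeks. Both groups therefore carried the kidney disease and the diet, and no healthy group was analysed here. The labels used here name no strain, sex or age, and whether the libraries of a group are separate animals is not stated in them. The p-values therefore rest on the spread among libraries, which may be technical.

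Mitochondria have their own ribosome, which translates only the few messengers encoded in mitochondrial DNA, all of them for subunits of the respiratory chain and the ATP synthase. It is built from ribosomal RNA made inside the organelle and from proteins that are encoded in the nucleus, made in the cytosol and imported. Some of these proteins have relatives in the bacterial ribosome, and others are found only in mitochondria. In the muscle cells of the vessel wall, mitochondrial respiration is 1 of the sources of the ATP used for contraction and ion transport.

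Values are FPKM, reads scaled to gene length and library total. Reads counted back from the FPKM steps gave library totals of 28063355 to 44561082. Smooth muscle genes, which define the wall of the aorta, were high: the 6 markers examined summed to 13468 to 21219 FPKM with saline and to 14907 to 20982 FPKM with exosomes. Some libraries stood apart. The chaperone gene Hsph1 stood at 218 and 512 FPKM in exosome 1 and 3 and at 41.9 FPKM in exosome 2, against 35.5 to 83.5 FPKM with saline. Saline 2 held the most fat RNA, with an adipocyte marker sum of 1120 FPKM against 333 to 659 FPKM in the other libraries, and with the brown fat gene Ucp1 at 14.98 FPKM against 0.0594 to 1.07 FPKM elsewhere. Heart muscle genes were found in exosome 3, where Myl2 stood at 2.08 FPKM and was at 0 in the other 5 libraries.

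Promoters of 4 members are shown because the results below turn on these genes. Mrps16 had the smallest p among the members, Mrps18b was the 1 member that was higher at an unadjusted p under 0.05, Mrpl17 had the highest level, and Mrpl18 shares its upstream region with a neighbour of opposite direction. Each sequence runs 5′ to 3′ on the gene's strand, from 250 bases before to 50 bases after the start of the gene, in RefSeq's GRCr8 build of the rat genome. Mrps16 lies at chr15:3967559-3967858 (plus strand), Mrps18b at chr20:2842756-2843055 (plus strand), Mrpl17 at chr1:169575650-169575949 (minus strand) and Mrpl18 at chr1:50384702-50385001 (plus strand). Capitals mark exact matches, on either strand, to the NRF1 core GCATGCGC or to the full NRF1 site, which is this core with GC in front of it and so contains it, to the ETS site CCGGAAG and to the YY1 site AAGATGGC. NRF1, the ETS factor GABPA and YY1 are transcription factors known for sites in nuclear genes of mitochondrial proteins.
Mrps16: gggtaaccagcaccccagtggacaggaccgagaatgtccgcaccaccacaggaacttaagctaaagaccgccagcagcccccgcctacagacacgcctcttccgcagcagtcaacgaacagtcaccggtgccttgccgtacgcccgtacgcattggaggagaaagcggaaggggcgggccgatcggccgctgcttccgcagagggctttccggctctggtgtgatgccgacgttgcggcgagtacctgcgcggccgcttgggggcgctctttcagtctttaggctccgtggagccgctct
Mrps18b: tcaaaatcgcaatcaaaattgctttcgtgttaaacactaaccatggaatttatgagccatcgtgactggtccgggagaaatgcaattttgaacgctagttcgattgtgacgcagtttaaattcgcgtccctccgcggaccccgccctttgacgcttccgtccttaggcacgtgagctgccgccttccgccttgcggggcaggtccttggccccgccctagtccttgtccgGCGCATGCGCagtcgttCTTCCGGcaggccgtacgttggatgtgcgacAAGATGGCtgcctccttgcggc
Mrpl17: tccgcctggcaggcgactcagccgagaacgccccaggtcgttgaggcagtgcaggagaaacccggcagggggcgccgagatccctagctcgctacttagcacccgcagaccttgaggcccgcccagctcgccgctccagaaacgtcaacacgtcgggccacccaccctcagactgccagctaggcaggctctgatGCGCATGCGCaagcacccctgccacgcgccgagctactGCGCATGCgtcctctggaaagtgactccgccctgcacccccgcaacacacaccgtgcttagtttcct
Mrpl18: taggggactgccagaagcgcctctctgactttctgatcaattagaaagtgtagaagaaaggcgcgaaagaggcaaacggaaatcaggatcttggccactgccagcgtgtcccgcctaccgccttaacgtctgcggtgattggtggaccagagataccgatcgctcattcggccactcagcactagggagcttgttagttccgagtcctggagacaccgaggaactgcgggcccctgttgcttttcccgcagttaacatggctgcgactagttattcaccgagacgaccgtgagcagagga

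Of the 4 promoters, that of Mrps18b held all 3 kinds of site, that of Mrpl17 held the NRF1 site and a further NRF1 core, and those of Mrps16 and Mrpl18 held none of these exact letters. Promoters were matched by symbol for 60 of the 76 members. The ETS site was found in 21 of the 60 (35.0%), against 8.75% of all 33469 rat promoters of the same length and 17.3% of the 9749 promoters of genes tested here. The YY1 site was found in 15 of 60 (25.0%), against 3.17% of all promoters and 5.55% of those of tested genes. The NRF1 core was found in 5 of 60 (8.33%), namely Mrpl17, Mrpl22, Mrpl32, Mrpl44 and Mrps18b, against 2.47% of all promoters and 5.11% of those of tested genes. At least 1 of the 3 kinds was present in 33 members, and Mrps18b was the 1 member with all of them, among 13 such promoters in the whole table. These matches describe letters in a window and not binding.

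Members of both subunits lay mostly slightly lower in the exosome libraries, and no single member passed the test. Of 76 members, 73 reached a mean of 1 FPKM over the 6 libraries and were tested with limma on log2(FPKM + 1). The lowest Benjamini-Hochberg adjusted p among them, over 11742 genes, was 0.237, in a comparison where 1 gene in all was called (0.00852%). In sign, 62 of 73 were lower and 11 higher, with a median log2 difference of -0.25, where 60.7% of all tested genes were lower in sign and the median of all was -0.07. The median ratio of the exosome mean to the saline mean was 0.826. At an unadjusted p under 0.05, 18 of 73 members (24.7%) were lower and 1 was higher, against 9.24% of all tested genes lower and 6.75% higher. All 3 exosome values lay below all 3 saline values for 27 members (37.0%), against 11.7% of all tested genes, and above them for 2 members, against 9.4%. FPKM is relative to the other RNA of the library, and in whole tissue fewer cells of a type and less RNA per cell cannot be told apart.

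The counts depended on the scaling and on single libraries, while the sign of the median did not in any fit. After rescaling each library to the median of ratios, 11 members were lower and 2 higher at an unadjusted p under 0.05, the median was -0.18, and the median of all genes was -0.01. Of all tested genes 840 (7.15%) were then lower and 1138 higher at that p, so the balance over all genes turned. After rescaling to equal sums 9 members were lower and 1 higher, against 742 of all tested genes lower (6.32%) and 957 higher. Members whose exosome values all lay below saline numbered 18 (24.7%) under either rescaling, against 10.1% of all tested genes with the median of ratios and 8.20% with equal sums. That count was 27 to 40 with 1 library left out, and was 40 without exosome 2. Leaving a library out can only keep or raise it, so this range says nothing about its stability. The matching share of all tested genes is not given here. At an unadjusted p under 0.05, 9 of 73 members were lower without exosome 1 and 5 without exosome 3. Of all tested genes 4.67% and 4.33% were then lower at that p. Lower members numbered 10 without saline 1, 11 without saline 2 and 9 without saline 3. The shares of all tested genes were then 11.4%, 5.59% and 4.31%. Without exosome 2 the lower members numbered 27, against 19.1% of all tested genes. With exosome 1 and 3 both left out, 52 of 73 were lower in sign, against 45.2% of all tested genes. The median was then -0.11 where that of all genes was 0.03. In that fit exosome 2 was the lone treated library, and its spread was taken to be that of the saline group.

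**Figure D1:**
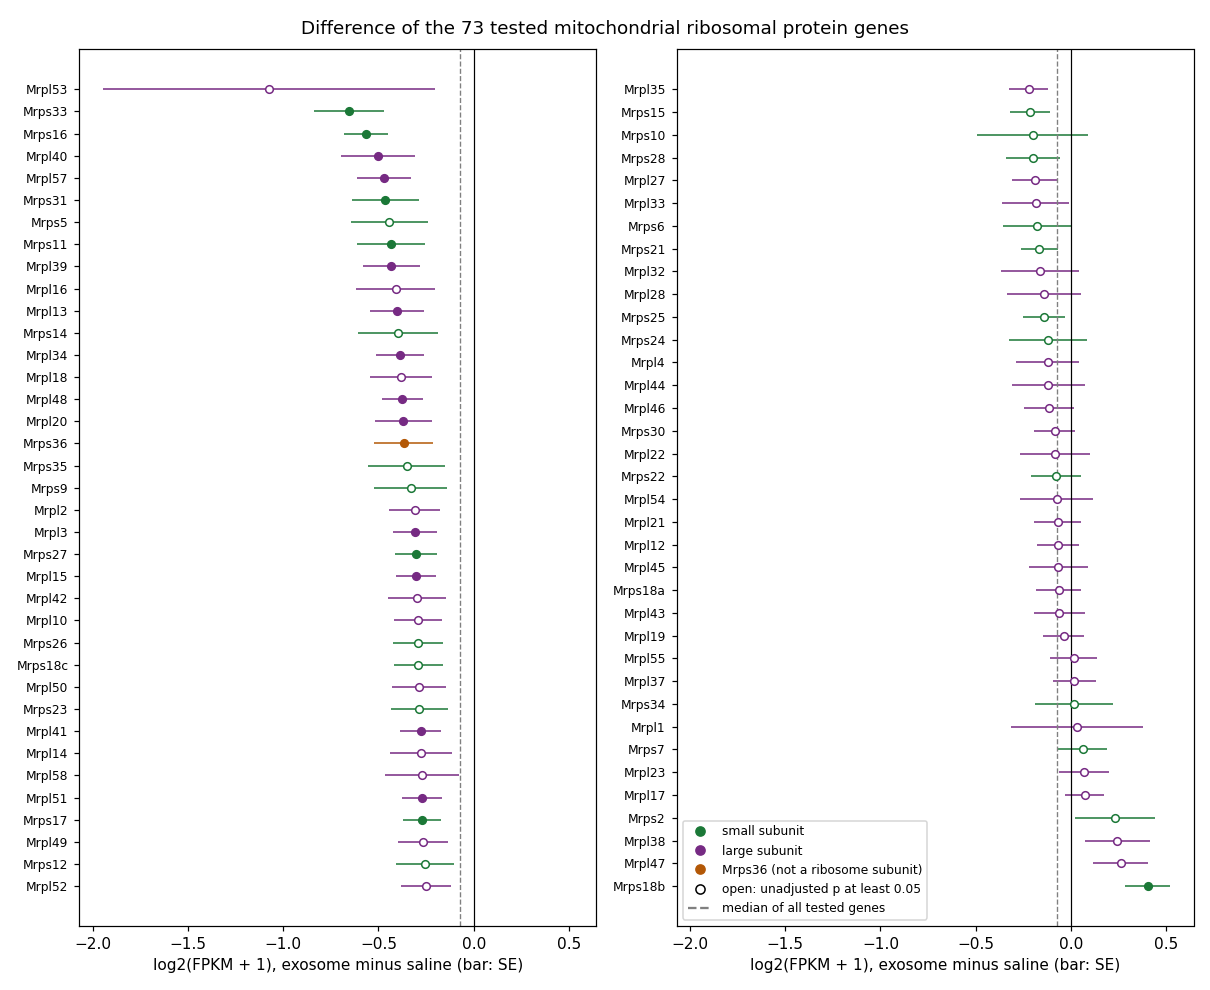
Log2 difference (exosome minus saline, log2(FPKM + 1) units) of each of the 73 tested members, with limma's standard error as the bar; green is the small subunit, purple the large subunit and orange Mrps36, filled points have an unadjusted p under 0.05 and the dashed line is the median of all tested genes. Most points lie left of 0, with 62 lower and 11 higher in sign, and Mrps18b is the filled point on the right.

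The members' share of the reads on genes separated the groups, before any rescaling of the libraries. Reads on the 76 genes made up 0.124%, 0.122% and 0.122% of the reads on genes in saline 1, 2 and 3, and 0.106%, 0.113% and 0.0980% in exosome 1, 2 and 3. Every exosome library was thus below every saline library, and the exosome libraries were spread more widely, with an SD of 0.00761 percentage points against 0.00116 with saline. The median of ratios gave size factors of 0.997, 1.02 and 1.065 for saline 1, 2 and 3. Those of exosome 1, 2 and 3 were 0.942, 1.046 and 0.937, and the shares were not rescaled by them. With the shares as given, exosome 2 came closest to saline. It was the highest of the 3 exosome libraries for 42 of 73 tested members (57.5%), which is near its share among all tested genes (57.1%). Exosome 3 was the lowest exosome library for 43 members (58.9%), against 46.0% of all tested genes. It was the lowest of all 6 libraries for 37 members, and the median deviation of all tested genes was also lowest there (-0.09).

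**Figure D2:**
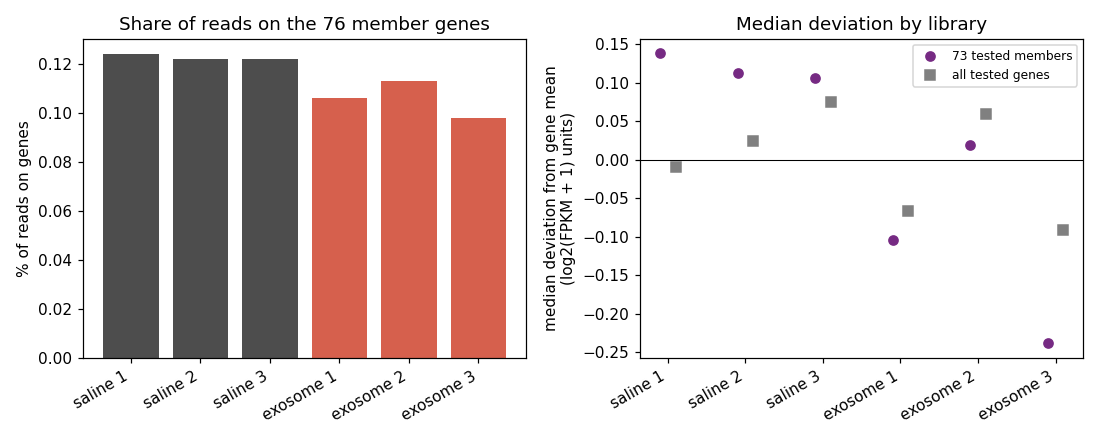
Left, the percent of reads on genes that fell on the 76 member genes in each library, as bars from 0; right, the median deviation of the 73 tested members and of all tested genes from each gene's mean over the 6 libraries, in log2(FPKM + 1) units. The 3 exosome bars (0.0980% to 0.113%) are all shorter than the saline bars (0.122% to 0.124%), and exosome 3 has the lowest members' median at -0.24.

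Marker genes of other cells moved with the groups, and their part in these differences was not tested. All 6 macrophage markers were higher in sign with exosomes, and their sum was 73.02 to 84.0 FPKM with saline and 103 to 124 FPKM with exosomes. Of 6 endothelial markers 5 were higher in sign, with sums of 67.8 to 95.6 FPKM and 112 to 178 FPKM. The sums of adipocyte markers (333 to 1120 and 374 to 659 FPKM) and of the brown fat markers (33.9 to 69.7 and 34.0 to 47.05 FPKM) overlapped between the groups, and the brown fat gene Elovl3 was at 0 in every library. Red cell genes had 363 to 1024 FPKM with saline and 219 to 656 FPKM with exosomes. Without saline 2, the library with the most fat RNA, the members' median was -0.24.

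Levels differed between members by far more than between groups. Per length, the mean over the 6 libraries ran from 2.08 FPKM for Mrpl1 to 57.6 FPKM for Mrpl17, with a median of 13.01 FPKM, and 66 of the 73 tested members lay between 5 and 30 FPKM. The 4 highest were Mrpl17, Mrpl52 (48.4 FPKM), Mrpl34 (34.7 FPKM) and Mrpl20 (32.5 FPKM), all of the large subunit. Depth was adequate for most, with a median over members of 333 reads in the library where each was lowest. Below the minimum were Mrpl36, listed at 0 in every library, Mrpl30, with 1 read in saline 1 and none elsewhere, and Mrps21l, with at most 2 reads in a library. A further 3 large subunit genes are written in lower case in the deposited data and so fall outside the rule: mrpl9 (log2 difference -0.46, adjusted p in limma 0.539), mrpl11 (-0.29, 0.319) and mrpl24 (-0.23, 0.336).

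In the small subunit, which binds the messenger and reads its codons, 22 of 26 tested members were lower in sign, with a median of -0.26. Among the 16 with bacterial relatives 14 were lower in sign, 3 of them (18.75%) at an unadjusted p under 0.05, and the median was -0.24. Among the 10 found only in mitochondria 8 were lower in sign, 3 (30%) at that p, and the median was -0.29. Of all tested genes 60.7% were lower in sign and 9.24% lower at that p, with a median of -0.07. Mrps16, a member with a bacterial relative whose loss in people causes a respiratory chain deficiency, stood at 18.6, 17.9 and 21.99 FPKM with saline and at 13.5, 12.2 and 12.8 FPKM with exosomes. The groups did not overlap, and the exosome values lay close together. Its mean was 19.5 ± 2.18 FPKM with saline and 12.8 ± 0.631 FPKM with exosomes (SD, n = 3 each), and its log2 difference was -0.57 ± 0.12 (SE) with a limma adjusted p of 0.237. Mrps33, which has no bacterial relative, stood at 12.03, 16.03 and 13.8 FPKM with saline and at 6.88, 10.98 and 7.85 FPKM with exosomes. Here exosome 1 and 3 were low and exosome 2 came near saline 1. The log2 difference of -0.66 ± 0.18 (SE) had an adjusted p of 0.256 in limma.

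The same shape, with exosome 2 at or near the saline values, was seen in several other small subunit members. Mrps11 stood at 12.8, 13.8 and 13.3 FPKM with saline and at 8.05, 13.05 and 8.29 FPKM with exosomes, and its log2 difference came to -0.43. Mrps14 stood at 18.8, 21.1 and 19.7 FPKM with saline and at 14.00, 20.99 and 11.04 FPKM with exosomes, and its log2 difference came to -0.40. In both genes exosome 2 lay among the saline values, so the groups overlapped. Mrps27, a protein with pentatricopeptide repeats, showed no such gap between the exosome libraries. It stood at 7.92, 7.27 and 7.76 FPKM with saline and at 5.83, 6.28 and 5.92 FPKM with exosomes, and its log2 difference was -0.30. Mrps17, a member with a bacterial relative, was alike in this, at 18.6, 17.2 and 18.6 FPKM and at 14.3, 15.7 and 14.5 FPKM, with a log2 difference of -0.27. These 4 genes were chosen after their values were seen.

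The 3 genes of the Mrps18 family, which are related to a single bacterial ribosomal protein, did not lie together. Mrps18a and Mrps18b are counted above and below among the proteins found only in mitochondria, since their places in the ribosome have no bacterial match. Mrps18b was higher in every exosome library than in any saline library, with 10.9, 9.28 and 9.20 FPKM with saline and 13.3, 12.3 and 14.2 FPKM with exosomes. Its log2 difference was 0.40 ± 0.12 (SE; limma adjusted p 0.261). Mrps18c stood at 11.97, 13.9 and 10.9 FPKM with saline and at 9.03, 9.87 and 10.5 FPKM with exosomes, so the groups were apart in the opposite direction, with a log2 difference of -0.29 ± 0.13 (SE) and an adjusted p of 0.316. Mrps18a, whose protein sits in the large subunit despite its name, stood at 17.3, 16.8 and 17.02 FPKM and at 15.5, 18.8 and 14.7 FPKM, with overlapping groups and a log2 difference of -0.07 ± 0.12 (SE). The differences between the 3 genes were not tested. The sign of Mrps18b was the same in every fit tried, and its log2 difference was 0.47 without saline 1.

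**Figure D3:**
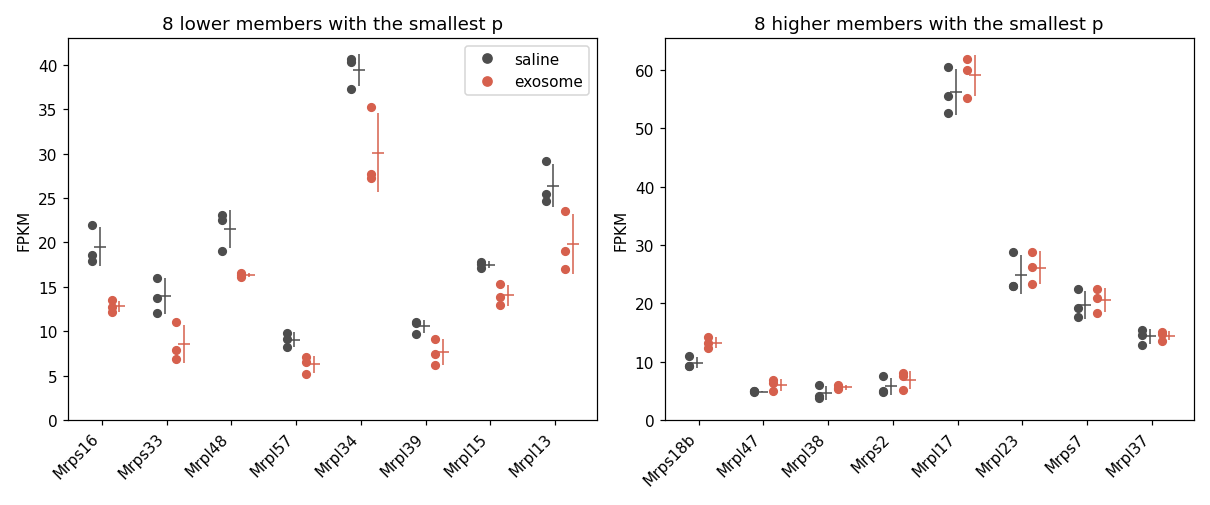
FPKM in each library (points) with the group mean and SD beside them (n = 3 per group), for the 8 lower and the 8 higher members with the smallest p. The lower members on the left show exosome points below all saline points, while on the right the groups are apart for Mrps18b and, by a small margin, for Mrpl47.

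In the large subunit, which joins the amino acids and lets the new chain out through its exit tunnel, 39 of 46 tested members were lower in sign, with a median of -0.21. Among the 25 with bacterial relatives 20 were lower in sign, 5 of them (20%) at an unadjusted p under 0.05, and the median was -0.19. Among the 21 found only in mitochondria 19 were lower in sign, 6 (28.6%) at that p, and the median was -0.27. These stand against 60.7% of all tested genes lower in sign, 9.24% lower at that p, and a median of -0.07. Mrpl48, a protein of the central protuberance, stood at 19.04, 22.5 and 23.03 FPKM with saline and at 16.3, 16.1 and 16.5 FPKM with exosomes. The exosome libraries were nearly equal and all lay below saline. The log2 difference was -0.37 ± 0.11 (SE; limma adjusted p 0.261). Mrpl57, a small mitochondrial protein, stood at 8.20, 9.08 and 9.84 FPKM with saline and at 6.58, 7.05 and 5.18 FPKM with exosomes, with a log2 difference of -0.47 ± 0.14 (SE). Mrpl34, related to one of the smallest bacterial ribosomal proteins, stood at 37.3, 40.6 and 40.3 FPKM with saline and at 27.7, 35.3 and 27.3 FPKM with exosomes. Exosome 2 was again the nearest to saline, and the groups did not overlap. The log2 difference of Mrpl34 was -0.39 ± 0.12 (SE; limma adjusted p 0.272).

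The next large subunit members by p were also apart between groups. Mrpl39, a mitochondrial protein with no bacterial ribosomal relative, stood at 10.9, 9.72 and 11.02 FPKM with saline and at 7.47, 9.15 and 6.24 FPKM with exosomes. Mrpl15, which has a bacterial relative, stood at 17.8, 17.1 and 17.6 FPKM with saline and at 12.9, 13.9 and 15.3 FPKM with exosomes. Mrpl13, another with a bacterial relative, stood at 29.1, 25.4 and 24.6 FPKM with saline and at 19.03, 23.5 and 16.96 FPKM with exosomes. In Mrpl15 the highest exosome library was exosome 3, where in Mrpl39 and Mrpl13 it was exosome 2. Their log2 differences were -0.43, -0.30 and -0.40 for Mrpl39, Mrpl15 and Mrpl13, with adjusted p of 0.284, 0.285 and 0.285 in limma. The adjusted p of the other 9 lower members of both subunits with an unadjusted p under 0.05, from Mrps27 to Mrps11, lay between 0.288 and 0.308.

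Among the most abundant members the direction was not shared. Mrpl52 stood at 55.7, 55.5 and 46.7 FPKM with saline and at 41.1, 51.02 and 40.6 FPKM with exosomes, with overlapping groups and a log2 difference of -0.25. Mrpl20 stood at 33.99, 40.5 and 35.6 FPKM with saline and at 33.6, 28.5 and 23.2 FPKM with exosomes, apart by a small margin, with a log2 difference of -0.37. Mrpl17 stood at 60.5, 55.5 and 52.6 FPKM with saline and at 61.96, 55.2 and 60.1 FPKM with exosomes. Its groups overlapped, with a log2 difference of 0.07 ± 0.10 (SE) and an adjusted p of 0.728 in limma. The sign of Mrpl17 turned with exosome 1 and 3 both left out (-0.02).

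The higher members were few, and most of their differences were small against their errors. Mrpl47, whose bacterial relative lies by the exit tunnel, stood at 4.74, 4.90 and 4.90 FPKM with saline and at 6.92, 6.34 and 4.91 FPKM with exosomes. Exosome 3 was almost level with saline, although the groups did not overlap, and the adjusted p was 0.388 in limma. Mrpl38 stood at 6.03, 3.84 and 4.08 FPKM with saline and at 5.29, 5.49 and 6.03 FPKM with exosomes (log2 difference 0.24, limma adjusted p 0.477). Mrps2 stood at 7.46, 4.99 and 4.77 FPKM and at 7.53, 5.15 and 8.01 FPKM (0.23, 0.579). The groups overlapped in both genes, and in both saline 1 was the highest saline library. With 1 library left out the log2 difference of Mrpl38 ran from 0.14 without saline 2 to 0.41 without saline 1, and that of Mrps2 from 0.13 without exosome 3 or saline 3 to 0.41 without saline 1. Mrps2 was at -0.11 with exosome 1 and 3 both left out. Without saline 1 the sign of neither turned, and the number of members that were apart and higher was 6 in place of 2. That number cannot fall when a library is left out. Mrpl23 (0.07), Mrps7 (0.06), Mrpl37 (0.02) and Mrpl55 (0.01) differed by less than their standard errors of 0.11 to 0.13, with overlapping groups. Their values ran from 22.9 to 28.7 FPKM with saline and from 23.2 to 28.9 FPKM with exosomes for Mrpl23, and from 17.6 to 22.4 and 18.4 to 22.5 FPKM for Mrps7. They ran from 12.9 to 15.5 and 13.6 to 15.2 FPKM for Mrpl37, and from 13.3 to 15.7 and 13.2 to 16.5 FPKM for Mrpl55. The sign of Mrpl23 turned without exosome 1, that of Mrps7 without exosome 3 or saline 3, and that of Mrpl37 without exosome 1 or saline 2. The sign of Mrpl55 turned with library weights and without exosome 2 or saline 2.

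The widest difference among the members rested on a single library. Mrpl53 stood at 16.1 FPKM in saline 1, at 0.437 and 0.572 FPKM in saline 2 and 3, and at 0.472, 0.809 and 0.546 FPKM in the exosome libraries, from 8 to 333 reads. Its log2 difference of -1.08 ± 0.87 (SE) became 0.09 without saline 1. Mrps10 also had its highest value in saline 1, at 14.2 FPKM against 5.67 to 8.09 FPKM in the other libraries, and its log2 difference of -0.20 became 0.14 without it. Mrpl1 was highest in exosome 1 (3.98 FPKM) and stood at 1.22 to 2.87 FPKM elsewhere. These 3 genes were chosen after their values were seen.

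Mrps36 carries the family's name but is known as a subunit of the 2-oxoglutarate dehydrogenase complex of the citric acid cycle. It stood at 16.8, 18.3 and 14.97 FPKM with saline and at 15.5, 11.99 and 10.8 FPKM with exosomes. Exosome 1 lay among the saline values, and exosome 2 and 3 lay below them. The log2 difference was -0.37 ± 0.15 (SE), with an unadjusted p of 0.0445 and an adjusted p of 0.307 in limma.

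Some members begin head to head with another gene, so that both are transcribed away from a shared upstream region. Neighbours were searched for the 60 members with a promoter matched by symbol. In GRCr8, 17 pairs of a member and a neighbour on the opposite strand had their starts at most 1000 bases apart, and both genes were tested in 13 of them. Both were lower in sign in 7 pairs and both higher in 1, and the signs differed in 5. Since 62 of 73 members and 60.7% of all tested genes were lower in sign, pairs with both lower would be common without any link. Whether the signs of a pair go together was not tested. Without strand information, reads in any overlap of such genes cannot be told apart. Mrpl46 and Mrps11, both of the mitochondrial ribosome, form such a pair, with log2 differences of -0.12 and -0.43. Mrps27 (-0.30) begins beside Ptcd2 (-0.46), which encodes a mitochondrial RNA-binding protein, and Mrps18c (-0.29) begins beside the DNA helicase gene Helq (-0.52). Mrps18b (0.40) begins beside Ppp1r10 (0.30 ± 0.23, SE), which encodes a regulator of protein phosphatase. Mrpl47 (0.26) begins beside Ndufb5 (-0.14), a complex I subunit.

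The pair of Mrpl18 and Tcp1 differed most in direction. Mrpl18, the mitochondrial relative of a bacterial protein that binds ribosomal RNA, stood at 25.99, 40.4 and 35.1 FPKM with saline and at 26.3, 26.3 and 23.5 FPKM with exosomes. Saline 1 lay at the level of the exosome libraries, and the log2 difference was -0.38 ± 0.16 (SE; limma adjusted p 0.313). Tcp1, a subunit of the cytosolic chaperonin that folds actin and tubulin, stood at 57.3, 59.04 and 55.7 FPKM with saline and at 85.98, 59.1 and 94.7 FPKM with exosomes. Exosome 1 and 3 were high and exosome 2 was level with saline, as for Hsph1. The log2 difference of Tcp1 was 0.44 ± 0.17 (SE; limma adjusted p 0.293).

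**Figure D4:**
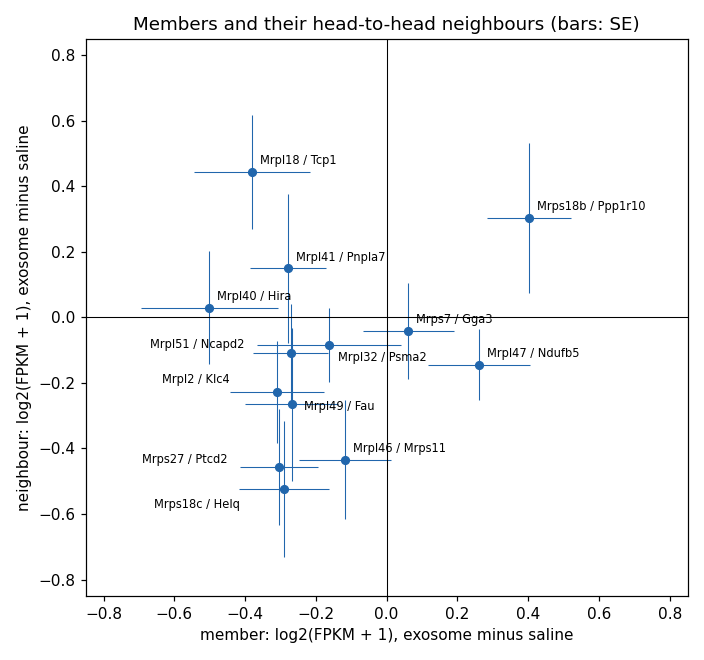
Log2 differences (exosome minus saline, log2(FPKM + 1) units) of 13 members on the horizontal axis and of the gene that begins head to head with each on the vertical axis, with standard errors as bars. The lower left area holds 7 pairs, and Mrpl18 with Tcp1 lies in the upper left at -0.38 and 0.44.

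Other genes of mitochondrial translation were described from lists, and none of their tested members passed the adjusted threshold in limma. The counts below stand against 60.7% of all tested genes lower in sign, and 9.24% lower and 6.75% higher at an unadjusted p under 0.05. Of 5 ribosome proteins without the family's symbol, all were lower in sign, with a median of -0.15. Aurkaip1, a small subunit protein, stood at 37.8, 35.8 and 35.97 FPKM with saline and at 29.3, 32.8 and 28.6 FPKM with exosomes, and the groups did not overlap. Dap3, the GTP-binding protein of the small subunit, had a log2 difference of -0.20. Of 11 translation factors 8 (72.7%) were lower in sign, 2 of them (18.2%) at an unadjusted p under 0.05, with a median of -0.30 that was -0.07 with exosome 1 and 3 both left out. These 2 were the release factor gene Mtrf1, at 4.14, 4.67 and 5.60 FPKM with saline and 2.47, 3.59 and 2.67 FPKM with exosomes, and the initiation factor gene Mtif3 (log2 difference -0.36).

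Of 19 tested genes for mitochondrial aminoacyl-tRNA synthetases and amidotransferase subunits, which charge the transfer RNAs, 17 (89.5%) were lower in sign, 3 of them (15.8%) at an unadjusted p under 0.05, against 60.7% and 9.24% of all tested genes. Their median was -0.22, and -0.05 with exosome 1 and 3 both left out. Cars2 stood at 7.13, 7.37 and 7.68 FPKM with saline and at 4.63, 4.96 and 4.81 FPKM with exosomes, which is -0.53 ± 0.11 in log2 (SE; limma adjusted p 0.237). Its exosome values lay together and apart from saline. Qrsl1 had a log2 difference of -0.43. Of 23 genes of ribosome assembly and ribosomal RNA modification 17 (73.9%) were lower in sign, 4 of them (17.4%) at an unadjusted p under 0.05, with a median of -0.19. With exosome 1 and 3 both left out 10 of the 23 were lower in sign, against 45.2% of all tested genes. The median was then 0.02, where that of all genes was 0.03. Gtpbp10, a GTPase of large subunit assembly, had a log2 difference of -0.75, the small subunit assembly factor Eral1 of -0.46, and Malsu1 of -0.33. The last of the 4 was Tmem143 (-0.48), whose place in this list was not checked here. In the same list Mterf3 (0.31), Mrm1 (0.35) and Mettl17 (0.33) had exosome values that were all above saline, and they were chosen after their values were seen.

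Genes for transcription of mitochondrial DNA and handling of its messengers were also mostly lower in sign, at 13 of 14 with a median of -0.12, and none had an unadjusted p under 0.05. With exosome 1 and 3 both left out 7 of 14 were lower in sign, against 45.2% of all tested genes. Pnpt1, Taco1 and Tefm came first by p, with log2 differences of -0.27, -0.38 and -0.37. The messengers that the mitochondrial ribosome translates were lower in sign for all 13, with a median of -0.31, and 1 of them, ND3, at an unadjusted p under 0.05. All 13 were also lower in sign with exosome 1 and 3 both left out, with a median of -0.50. Saline 2, the library with the most fat RNA, was the highest of the 6 libraries for all 13. Without saline 2, 10 were lower and 3 higher in sign (COX2 0.12, ND6 0.07 and ND5 0.01), none had an unadjusted p under 0.05, and the median was -0.16. ND3 stood at 657, 1378 and 818 FPKM with saline and at 605, 537 and 613 FPKM with exosomes. For ND3, whose log2 difference was -0.33 without saline 2, exosome 2, the highest exosome library for most ribosomal members, was the lowest. ND4 and ND4L had log2 differences of -0.35 and -0.43. The organelle's ribosomal RNA genes mt-Rnr1 and mt-Rnr2, added after the values were seen, had log2 differences of -0.19 and -0.26, with adjusted p of 0.597 and 0.463 in limma. Both were highest in saline 2, and without it their log2 differences were -0.01 and -0.11.

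Of 8 tested nuclear regulators of mitochondrial gene expression 2 were lower in sign (25.0%, against 60.7% of all tested genes) and 6 higher, with a median of 0.26. At an unadjusted p under 0.05, 3 were higher, against 6.75% of all tested genes, and none passed the adjusted threshold in limma. That number was 1 without exosome 3 or saline 2, and 2 without saline 1 or saline 3. Myc, a growth regulator, stood at 3.03, 1.71 and 2.60 FPKM with saline and at 3.86, 5.61 and 6.42 FPKM with exosomes, with groups that did not overlap and an adjusted p of 0.255. Pprc1, a coactivator related to PGC-1alpha, had a log2 difference of 0.76 with overlapping groups, and Yy1 of 0.28 with groups apart. Ppargc1a, the gene of PGC-1alpha itself, lay below the expression minimum, at 0.891, 1.14 and 1.20 FPKM with saline and 0.809, 0.754 and 0.801 FPKM with exosomes. Nrf1 (0.18 ± 0.12, SE) and Gabpa (-0.14 ± 0.17, SE) had overlapping groups.

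Genes of 2 related groups were also mostly lower in sign. Of 36 tested nuclear genes of complex I of the respiratory chain 35 were lower in sign, 11 at an unadjusted p under 0.05 (30.6%), with a median of -0.24, against 60.7% and 9.24% of all tested genes and their median of -0.07. The 11 became 3 with the median of ratios and 6 with equal sums. Of all tested genes 7.15% and 6.32% were then lower at that p. With 1 library left out the number ran from 4 without exosome 1 (4.67% of all tested genes) to 13 without saline 3 (4.31%). In the fit without exosome 1 and 3, 35 of 36 were lower in sign, against 45.2% of all tested genes. The median was then -0.25, where that of all genes was 0.03. Of 77 tested rows named as cytosolic ribosomal proteins 69 were lower in sign, 2 at an unadjusted p under 0.05 (2.60%, under the 9.24% of all tested genes), with a median of -0.14. The corresponding share of the mitochondrial ribosomal members was 24.7%. Whether the 3 groups differ was not tested.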

How the data were processed

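RNA-seq of rat aorta was available for 6 libraries, grouped by the treatment in the labels. Per the labels' protocols, a SMARTER kit for mRNA was used to prepare the libraries. The values deposited by the authors are FPKM in a single table, whose columns matched the sample titles. The submitters' processing notes name DESeq2 1.28.1 without saying what it was used for. For the aligner, counter, strand setting, build and annotation, names and settings were not given in the sources used here.

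FPKM steps gave whole reads for 18430 genes, 100.0% of those above 0, within 0.02 reads. The main test was limma 3.58.1 (R 4.3.3) on log2(FPKM + 1), with intensity trend, two-sided, for genes with a mean of at least 1 FPKM, with Benjamini-Hochberg adjustment and a threshold of 0.05. Log2 differences on this scale understate the change of low genes. The fit was tested on simulated data. Members, lists and tests were chosen with earlier results of these data known, so no list has a test of its own. Members given by library were the 8 with the smallest p in each direction, the 4 highest and the 2 with the least difference, and up to 3 genes of each list, of which 1 is not reported here. Any others were picked with their values in view. Alternatives were other pseudocounts (0.1, 0.01), filters, scalings, moderation, library weights, voom on recovered reads, a replicate block and each library left out. A fit without exosome 1 and 3 was added after seeing the data. Sequences and neighbours are from RefSeq (GRCr8). Python 3.11.15 was used for counts and plots.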

Additional observations from a re-analysis of the deposited data

How the results depend on the processing

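The members' median log2 difference kept its sign in all 19 other fits, with -0.29 to -0.18 when a single library was left out and -0.11 with exosome 1 and 3 both left out. The number of lower members at an unadjusted p under 0.05 was 9 after scaling to equal sums and 11 with the median of ratios. It was 5 to 27 with 1 library left out. With library weights it was 30 of 73, where 23.2% of all tested genes were lower at that p. The number of higher members was 3 with library weights, where 1219 of 11742 tested genes were higher at that p. It was 2 with the median of ratios (1138 of all tested genes) and 2 with quantile normalization (1047). With 1 library left out it was 1 to 2, where 433 to 965 of all tested genes were higher. Members that were apart and higher numbered 2 to 6 with 1 library left out, a count that cannot fall when a library is dropped. Over all genes, limma called 618 with library weights, 2 with quantile normalization, 0 to 9 with 1 library left out and 0 without exosome 1 and 3, where 295 were lower and 399 higher at an unadjusted p under 0.05. The calls were 0 without exosome 1 and without saline 3, 2 without exosome 3, 4 without exosome 2 and 9 without saline 1. With library weights 6 of 73 members passed, in a fit that called 618 of 11742 tested genes. They were Mrps33, Mrps16, Mrpl34, Mrpl48 and Mrps11, which were lower, and Mrps18b, which was higher. In the other fits no member passed. In voom on recovered reads 16 members were lower and 1 higher at an unadjusted p under 0.05. Of all tested genes 1175 (10.0%) were then lower and 841 higher at that p. Of 361 other fits of the 19 named members, 345 kept direction and side of the threshold. The 11 with the opposite sign were Mrps2 (-0.11), Mrpl17 (-0.023) and Mrps7 (-0.091) without exosome 1 and 3, Mrpl23 (-0.0032) and Mrpl37 (-0.016) without exosome 1, Mrps7 (-0.0010) without exosome 3 and (-0.014) without saline 3, Mrpl37 (-0.053) and Mrpl55 (-0.044) without saline 2, and Mrpl55 with library weights (-0.044) and without exosome 2 (-0.068). With 1 library left out the log2 differences ran from -0.0032 to 0.17 for Mrpl23, -0.014 to 0.15 for Mrps7, -0.053 to 0.071 for Mrpl37 and -0.068 to 0.082 for Mrpl55. The cause was not tested.

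With the replicate number as a block, 13 members were lower and 1 higher at an unadjusted p under 0.05 and limma called 1 gene in all. Of all tested genes 978 (8.33%) were then lower and 735 higher at that p. Same-numbered libraries did not deviate together (correlations 0.0682, 0.0958 and -0.165). With so few libraries, each measured from its group mean, these correlations cannot decide whether the numbers mark pairs. Exosome 2 correlated best with saline 3 and exosome 3 with saline 1. Depth limits Mrpl53, Mrpl1 and the 3 members below the minimum.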
